A study of Mus musculus with 8 samples.

Results

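Rpph1, Cenpv, Nlgn2, Ankrd13b, Crnde, Bcat1 and Alpl are 7 genes whose transcripts were higher in each of 4 mouse leukaemias than in the normal marrow cells of the same sort gate. They were picked for that property by their values, so the differences that define them are given below as a description, without a test. They are 7 of 16434 genes in the table, of which 3401 were higher in each leukaemia than in its matching normal library. Among the 12646 genes with a level of at least 1 FPKM in some library, 3002 had that property, or 23.7%. FPKM is a count of sequenced fragments scaled by gene length and by the library total.

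The libraries came from bone marrow of C57BL/6 mice with a listed age of 8 to 10 weeks, and the series concerns leukaemias with N-Myc overexpression. The 4 leukaemias were GFP-positive cells, sorted as B220+ for B-cell acute lymphoblastic leukaemia (B-ALL), CD3+ for T-cell acute lymphoblastic leukaemia (T-ALL), Mac1+Gr1+ for acute myeloid leukaemia (AML), and B220-CD3-Mac1-Gr1- for the leukaemia labelled AUL. The 4 references were normal marrow cells sorted by the same antigens: B cells (B220+), T cells (CD3+), myeloid cells (Mac1+Gr1+) and lineage-negative cells (B220-CD3-Mac1-Gr1-). How N-Myc and GFP were introduced, and whether a library pools animals, is not given in the sources used here. Each group had 1 library, so no comparison below has a replicate check or a p-value. In a bulk library, more cells that express a gene and more RNA per cell cannot be told apart.

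Library totals recovered from the table ran from 33818615 to 52280282 fragments. Mycn was listed at 719 to 1858 FPKM in the leukaemias and at 0.518 to 5.24 FPKM in the normal libraries. Sort markers did not always follow the labels. The library labelled AML had 1.63 FPKM of Itgam, which encodes the Mac1 antigen, against 208.1 in normal myeloid cells. The myeloid marker Ly6g had 8.91 FPKM against 798.1, and the granule enzyme gene Mpo 2220 against 354.4. Of 7 myeloid markers 2 were at least 2-fold higher in AML and 5 were lower, with a sum of 10153 FPKM against 113941. Among all genes 43.3% were higher in AML than in normal myeloid cells and 26.7% lower. The library labelled AUL, sorted as CD3-, had 57.4 FPKM of Cd3e, which encodes a CD3 chain. Its T cell markers summed to 1198 FPKM against 42.3 in lineage-negative cells, and its stem and progenitor markers to 11.6 against 314.6. In B-ALL, 5 of 7 T cell markers were at least 2-fold higher than in normal B cells and 2 were lower. Cd4 was among the lower, at 0.533 FPKM against 85.5. The T cell markers summed to 183.1 FPKM against 126.1. Of the 7 myeloid markers 5 were higher in B-ALL and 1 was lower, with a sum of 7658 FPKM against 2288. Among all genes 18.2% were at least 2-fold higher in B-ALL than in normal B cells and 21.9% lower. The B-cell receptor gene Cd79a had 214.7 FPKM in normal T cells and 198.4 in lineage-negative cells, against 1121 in normal B cells. The part that mixed or changed cell types play in the values below was not tested.

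The 7 genes belong to no single pathway. Rpph1 is the RNA component of ribonuclease P, the ribozyme that removes the 5′ leader of transfer RNA precursors; it is made by RNA polymerase III and is not polyadenylated in the usual way. Crnde is a long non-coding RNA known from colorectal and other tumours. Cenpv encodes centromere protein V, needed for cell division. Nlgn2 encodes neuroligin 2, an adhesion protein of inhibitory synapses, and Ankrd13b a ubiquitin-binding ankyrin-repeat protein of the endocytic system. Bcat1 encodes the cytosolic branched-chain amino acid transaminase, which several leukaemias are known to depend on. Alpl encodes tissue-nonspecific alkaline phosphatase, best known from bone-forming cells.

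The ribonuclease P RNA is shown because Rpph1 held the most even levels of the 7 across the leukaemias. It is one exon of 319 bases on the minus strand, at chr14:50807449-50807767 (mm10, GENCODE vM21), of which the first 250 bases are printed, and the capitals mark its one CACGTG, at bases 26 to 31. CACGTG is the E-box letters to which MYC proteins and their partner MAX are known to bind.

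Rpph1: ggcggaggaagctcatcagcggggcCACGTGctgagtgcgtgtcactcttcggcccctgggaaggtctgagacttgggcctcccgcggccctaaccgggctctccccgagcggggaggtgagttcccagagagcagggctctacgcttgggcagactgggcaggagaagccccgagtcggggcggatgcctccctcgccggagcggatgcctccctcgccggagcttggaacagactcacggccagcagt

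The 250 bases before the start of Crnde, Nlgn2 and Cenpv are shown because these genes had like patterns over the 8 libraries (given below). They come from RefSeq windows on GRCm38.p6, all on the minus strand, and capitals mark each CG. Crnde is at chr8:92356121-92356370, Nlgn2 at chr11:69837785-69838034 and Cenpv at chr11:62539262-62539511.

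Crnde: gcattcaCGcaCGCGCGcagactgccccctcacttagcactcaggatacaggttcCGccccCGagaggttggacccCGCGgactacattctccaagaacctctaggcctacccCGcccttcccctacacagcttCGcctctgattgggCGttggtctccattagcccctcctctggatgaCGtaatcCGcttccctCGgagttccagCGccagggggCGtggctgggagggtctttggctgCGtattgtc

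Nlgn2: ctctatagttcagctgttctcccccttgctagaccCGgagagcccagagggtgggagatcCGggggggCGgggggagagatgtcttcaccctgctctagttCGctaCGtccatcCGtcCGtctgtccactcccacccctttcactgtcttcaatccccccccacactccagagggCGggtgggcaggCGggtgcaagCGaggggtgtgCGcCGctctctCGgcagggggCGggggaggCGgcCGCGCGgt

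Cenpv: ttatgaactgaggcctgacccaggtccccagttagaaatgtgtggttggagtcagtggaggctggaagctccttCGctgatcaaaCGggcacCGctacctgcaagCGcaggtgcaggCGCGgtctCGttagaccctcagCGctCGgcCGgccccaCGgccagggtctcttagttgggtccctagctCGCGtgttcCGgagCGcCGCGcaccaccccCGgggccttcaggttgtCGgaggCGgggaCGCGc

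These 3 stretches hold 17, 18 and 22 CG pairs. RefSeq windows of 300 bases (250 before and 50 after a start) were found for 6 of the 7 genes, all but Rpph1, with 9 windows in all. Over all 32851 such windows the median was 7 CG pairs and the upper quartile 20. The 300-base windows of Crnde, Nlgn2 and Cenpv held 22, 26 and 30. Of the member windows, 7 of 9 were above the median and 5 were at or above the upper quartile. The letters CACGTG were in 0 of the 9 windows, against 7.15% of all windows. Rpph1, which has no window here, holds CACGTG at its bases 26 to 31, a stretch that such a window would cover. The looser letters CANGTG, searched on both strands and including CACGTG, were in 4 of the 9 windows, those of Alpl, Cenpv and Ankrd13b, against 44.9% of all. A match is a description of letters and no match says only that they are not in these windows.

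All 7 genes were at least 2-fold higher in each of the 4 comparisons, which the way they were picked made likely. A gene counted as 2-fold higher when it had at least 1 FPKM in the higher library and its log2(FPKM + 1) was greater by at least 1. By the same measure 18.2% of genes were higher in B-ALL than in normal B cells, 22.1% in T-ALL than in T cells, 43.3% in AML than in myeloid cells and 13.6% in AUL than in lineage-negative cells. In the same order 21.9%, 24.0%, 26.7% and 29.5% of genes were 2-fold lower, and 0 of the 7 genes. Those higher in all 4 made up 2.23%, or 282 of 12646 genes. Ordered by their smallest difference over the 4 comparisons, Rpph1 was 2nd of all genes, Cenpv 3rd, Ankrd13b 5th, Crnde 7th, Nlgn2 12th, Bcat1 40th and Alpl 78th. No threshold separates the 7 from the other genes of that order. The folds below are ratios of FPKM, with 95% intervals for a ratio of 2 counts, which cover counting error only. They also depend on how libraries are scaled, most of all in the myeloid gate. With median-ratio scaling the AML fold was 16.4 for Rpph1, 16.6 for Cenpv, 20.1 for Nlgn2 and 5.41 for Ankrd13b, and 33.5 for Crnde, 9.84 for Bcat1 and 4.28 for Alpl, each lower than the AML fold given below.

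**Figure D1:**
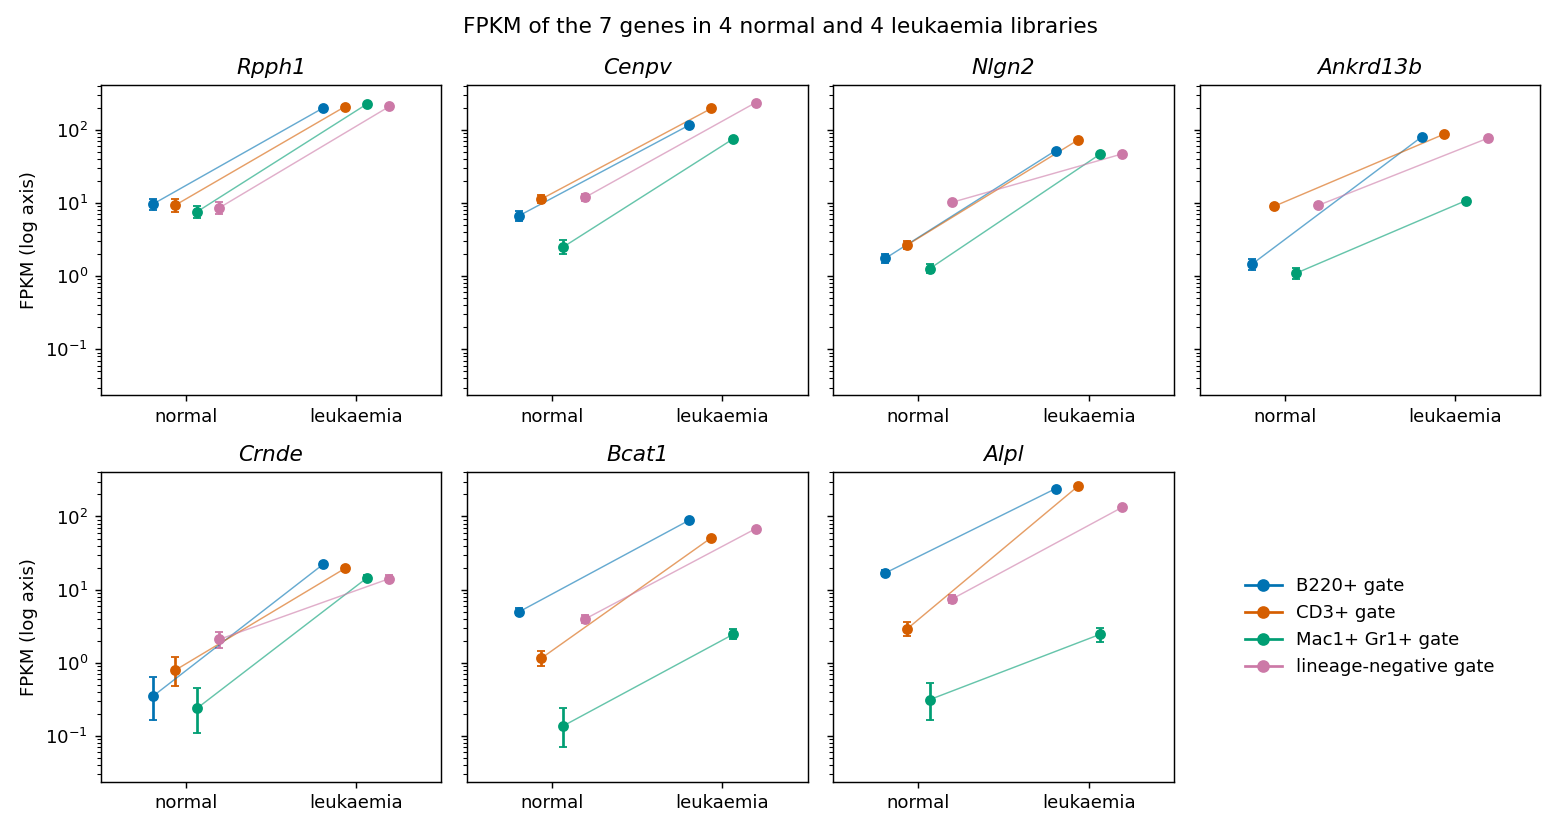
FPKM of the 7 genes in the 8 libraries on a log axis, 1 panel per gene; points are single libraries coloured by sort gate, lines join the 2 libraries of a gate and bars are 95% Poisson intervals of the fragment counts. Rpph1 forms a high group near 200 and a low group below 10, whereas Bcat1 and Alpl in AML lie among the normal libraries.

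Rpph1 had 197.6 FPKM in B-ALL and 207.1 in T-ALL, with 225.6 in AML and 207.8 in AUL, against 9.59 in normal B cells, 9.23 in T cells, 7.56 in myeloid cells and 8.53 in lineage-negative cells. The groups lay far apart. The highest leukaemia was 1.14 times the lowest (95% interval 1.08 to 1.20) and the highest normal 1.27 times the lowest (0.981 to 1.64). With median-ratio scaling these ratios were 1.24 and 1.75, with normal myeloid cells the highest normal library. Among neighbours in the order of levels, AUL and T-ALL, T-ALL and B-ALL, and each neighbouring pair of normal libraries differed by no more than counting error on the deposited scale. Of all genes, 71.8% had a highest leukaemia at least 2 times the lowest and 88.8% a highest normal at least 2 times the lowest normal. The fold was 20.6 in B-ALL (17.2 to 24.9) and 22.4 in T-ALL (18.5 to 27.4), with 29.9 in AML (25.0 to 36.0) and 24.4 in AUL (20.3 to 29.5). AML had the largest of these folds, but with median-ratio scaling (16.4) the smallest. The lowest leukaemia, B-ALL, lay 20.6 times above the highest normal library, which was normal B; with median-ratio scaling this gap was 13.2, over normal myeloid cells.

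Poly(A) capture keeps little of an RNA without a tail, so the other short non-coding RNAs of the table are given beside Rpph1. There were 236 of them, of the small nucleolar, small nuclear, small Cajal body and other short RNA classes. At least 2-fold higher were 63 of 185 tested in B-ALL (34.1%) and 43 of 161 in T-ALL (26.7%). In AML 124 of 186 were higher (66.7%) and in AUL 40 of 167 (24.0%). The shares over all genes were 18.2%, 22.1%, 43.3% and 13.6%. In the same order 34, 33, 28 and 38 of the short RNAs were lower, and 21.9%, 24.0%, 26.7% and 29.5% of all genes. The median log2 difference of the short RNAs was 0.49 in B-ALL and 0.12 in T-ALL, with 1.56 in AML and 0.07 in AUL. Over all genes it was -0.02, 0.03, 0.56 and -0.18. With median-ratio scaling of the libraries the T-ALL median was -0.05 for the short RNAs and -0.12 over all genes. Of 227 with at least 1 FPKM in some library, 10 were higher in all 4 comparisons, Snord110 and Snord70 among them. Of all 12646 genes with such a level, 282 were, or 2.23%. Only Gm27605 in B-ALL (52.5 FPKM, listed at 0 in normal B cells) had a greater difference than Rpph1, and none of the 236 had in the other 3 comparisons. This held with both other scalings but not with a pseudocount of 0.1, with which 9, 5, 17 and 1 were above Rpph1 in the 4 comparisons, Snord70 among them in the first 3. Rn7sk, another polymerase III transcript, was 187.4 FPKM in AUL and 3.15 to 4.86 in the other leukaemias, against 8.33 to 14.4 in the normal libraries. Rpph1 was picked for its high differences, so its place among these short RNAs is a description. Whether the capture of RNAs without a tail differed between libraries was not tested.

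**Figure D2:**
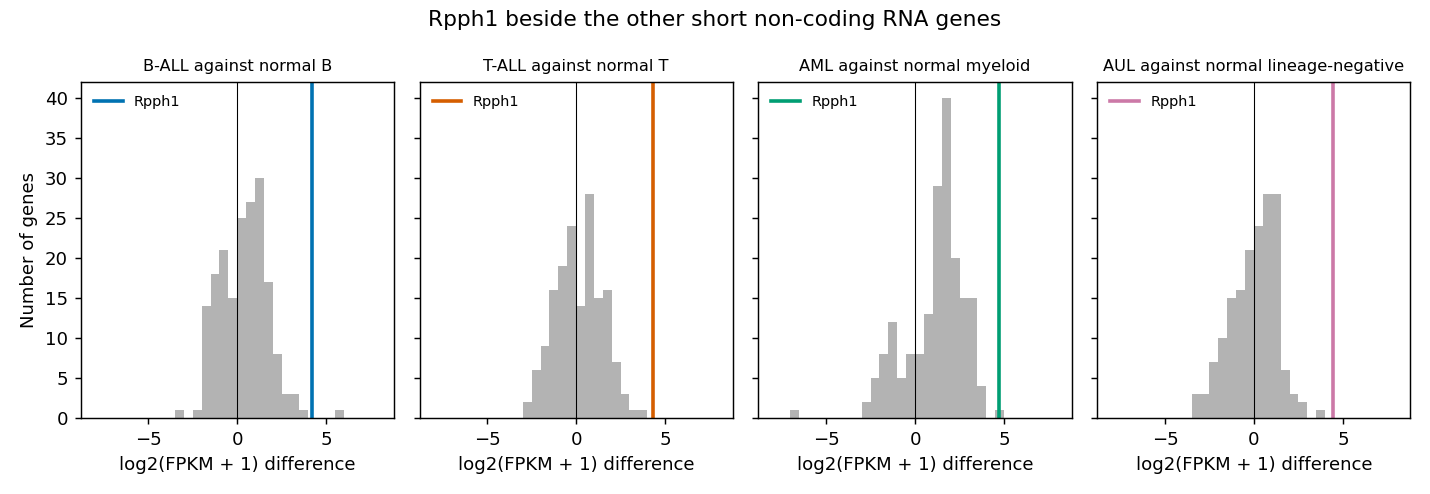
Number of short non-coding RNA genes by log2(FPKM + 1) difference, leukaemia minus normal, in 1 panel per comparison. A vertical line stands at Rpph1, which was picked for high differences. The line, at 4.23 in B-ALL and 4.35 in T-ALL, with 4.73 in AML and 4.45 in AUL, stands at the right edge of each distribution, with Gm27605 beyond it at 5.74 in B-ALL and Snord69 just below it at 4.62 in AML.

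The listed genes of the protein subunits of ribonuclease P and its relative RNase MRP had smaller log2(FPKM + 1) differences than Rpph1 in each comparison. Rpph1 was picked for its high differences, which made this order likely, so it is a description. As FPKM ratios or with a pseudocount of 0.1, Rpp25 exceeded Rpph1 in T-ALL (3.87 against 0.0380 FPKM) and AUL (2.81 against 0.0158), and Rpp40 did in AML (7.99 against 0.153). These normal levels rest on 2 fragments (T cells) and 1 (lineage-negative cells) for Rpp25, and on 18 (myeloid cells) for Rpp40. Of 12 such genes 9 were listed. At least 2-fold higher were 3 of 8 tested in B-ALL, 6 of 9 in T-ALL, 7 of 9 in AML and 2 of 9 in AUL. None was 2-fold lower. Among all genes the shares higher were 18.2%, 22.1%, 43.3% and 13.6% in that order. With median-ratio scaling 2, 5, 6 and 4 of the subunit genes were higher, and 1 was lower in AML. Pop1, the largest subunit, was 2-fold higher in all 4 comparisons, at 44.3, 30.0, 26.6 and 64.0 FPKM in the order B-ALL, T-ALL, AML, AUL against 7.95, 5.26, 1.79 and 15.0 in the matching normal cells. Rpp14 had 40.8 to 45.2 FPKM in the leukaemias and 4.40 to 25.3 in the normal libraries. Rpp21 overlapped, at 32.5 to 77.6 FPKM against 42.5 to 62.0, and so did Pop5, at 44.4 to 87.1 against 18.1 to 59.6. Pop4, Pop7 and the RNase MRP RNA Rmrp were not analysed here.

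Rpph1 lies 74 bases from Parp2, a DNA repair enzyme gene on the opposite strand. Parp2 had 46.0, 41.8, 36.0 and 32.7 FPKM in the order B-ALL, T-ALL, AML, AUL, and 37.3, 21.8, 9.09 and 33.4 in normal B, T and myeloid cells and in lineage-negative cells. Its log2 difference was 0.29, 0.91, 1.87 and -0.03, lower in each comparison than that of Rpph1, which was picked for high differences. Rpph1 also overlaps an exon of Ccnb1ip1 on its own strand. Ccnb1ip1 was not analysed here, and how the authors assigned fragments in the overlap is not given in the sources used here, so the level of Rpph1 carries that uncertainty.

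Crnde, the long non-coding RNA, had the lowest top level of the 7. It had 22.1 FPKM in B-ALL and 19.5 in T-ALL, with 14.6 in AML and 14.1 in AUL, against 0.348, 0.787, 0.239 and 2.09 in normal B, T and myeloid cells and in lineage-negative cells. The leukaemias lay within 1.56 times of each other and above all normal libraries, and AML and AUL were level within counting error. Normal B and myeloid levels rest on 10 and 9 fragments, so the folds are wide: 63.5 in B-ALL (34.3 to 133.1) and 24.8 in T-ALL (16.1 to 40.4), with 61.0 in AML (31.8 to 134.2) and 6.77 in AUL (5.20 to 8.93). The fold was smallest in AUL, whose reference, the lineage-negative cells, had the highest normal level.

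Crnde starts 1505 bases from Irx5, a homeobox gene on the opposite strand, at chr8:92326033-92356120. Irx5 reached no more than 0.132 FPKM in any library, while Crnde had 14.1 FPKM or more in every leukaemia. Gm21817, a non-coding gene that overlaps Crnde on the same strand without sharing exons, had 1.01, 0.869, 0.549 and 0.481 FPKM in the order B-ALL, T-ALL, AML, AUL and at most 0.0435 in the normal libraries. Ezh2, the Polycomb methyltransferase that CRNDE has been reported to bind, was at 178.2, 129.0, 72.3 and 142.6 FPKM against 144.2, 47.7, 30.7 and 142.8. It was at least 2-fold higher in T-ALL and AML, though in AML not with median-ratio scaling. The other 6 of 8 genes listed as neighbours or chromatin partners of Crnde were not analysed here.

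Cenpv had 115.7 FPKM in B-ALL and 195.6 in T-ALL, with 75.5 in AML and 234.7 in AUL, against 6.68, 11.3, 2.50 and 11.98 in normal B, T and myeloid cells and in lineage-negative cells. AML was lowest among the leukaemias and myeloid lowest among the normal cells, and the highest leukaemia was 3.11 times the lowest (2.95 to 3.28). The fold was 17.3 in B-ALL (14.8 to 20.4) and 17.4 in T-ALL (15.3 to 19.8), with 30.2 in AML (24.2 to 38.3) and 19.6 in AUL (17.5 to 22.0). The lowest leukaemia was 6.31 times the highest normal library. Normal T and lineage-negative cells were level within counting error.

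Other chromosomal passenger and centromere genes had smaller log2 differences than Cenpv in each comparison. Cenpv was picked for its high differences, which made this order likely, so it is a description. Of 23 in the list 18 were listed. Of these 5 were higher in B-ALL and 18 in T-ALL, with 9 in AML and 1 in AUL, and none was lower. Over all genes 18.2%, 22.1%, 43.3% and 13.6% were higher in that order. With median-ratio scaling 1 of the 18 was higher and 2 were lower in AML. The median log2 difference of the 18 was 0.70, 2.02, 1.03 and 0.13, against -0.02, 0.03, 0.56 and -0.18 over all genes. In AUL Cenpv had 4.18. Aurkb, the kinase of the passenger complex, had 130.8 FPKM in AUL and 125.7 in lineage-negative cells, but 135.3 in T-ALL and 20.2 in T cells. Incenp, its scaffold, had 59.9 to 73.4 FPKM in the leukaemias and 17.6 to 57.6 in the normal libraries. Cdca8 had 75.0 to 93.2 FPKM against 13.4 to 77.8, and the centromeric histone gene Cenpa 81.1 to 138.0 against 55.9 to 128.7. Cenpv is at chr11:62524946-62539261, and its nearest listed neighbours were Pigl, 10529 bases away, and Ubb, 11910 bases away. Pigl had 11.5 to 16.1 FPKM in the leukaemias and 4.65 to 7.95 in the normal libraries. The ubiquitin gene Ubb overlapped, at 544.1 to 793.0 against 610.6 to 782.8.

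Nlgn2 had 51.9 FPKM in B-ALL and 72.1 in T-ALL, with 46.1 in AML and 46.6 in AUL, against 1.75, 2.68, 1.26 and 10.2 in normal B, T and myeloid cells and in lineage-negative cells. The leukaemias lay within 1.56 times of each other, with AUL and AML level within counting error, and the lowest was 4.54 times the highest normal library. The fold was 29.7 in B-ALL (25.8 to 34.3) and 26.9 in T-ALL (23.9 to 30.4), with 36.6 in AML (31.7 to 42.5) and 4.59 in AUL (4.32 to 4.88). As for Crnde, lineage-negative cells held the highest normal level.

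Of 15 neuroligin and neurexin synapse genes 9 were listed. Among those tested 1 of 6 was higher in B-ALL and 1 of 2 in T-ALL, with 1 of 3 in AML and 0 of 4 in AUL. In the same order 0, 1, 2 and 2 were lower. The shares over all genes were 18.2%, 22.1%, 43.3% and 13.6% higher and 21.9%, 24.0%, 26.7% and 29.5% lower. With median-ratio scaling none of these synapse genes was higher in AML, where Gphn then had a log2 difference of 0.74. Nlgn3, its only listed paralogue, reached no more than 0.197 FPKM. The scaffold gene Gphn (gephyrin) had 6.97, 0.464, 12.3 and 7.59 FPKM in the order B-ALL, T-ALL, AML, AUL, and 7.03, 4.46, 3.82 and 7.41 in the matching normal cells. Dlg4, a scaffold of excitatory synapses, had 60.4 FPKM in T-ALL and 0.498 in AML. Mdga1, an inhibitor of neuroligin binding, had at most 1.11 FPKM in the leukaemias. Of 8 neuronal markers 7 were listed; their summed level was 5.84 to 31.3 FPKM in the leukaemias and 1.37 to 7.73 in the normal libraries, most of it in B-ALL, T-ALL and AUL from Map2. In AML most of it came from Slc32a1, the vesicular transporter gene of inhibitory neurons, at 5.14 FPKM against 1.04 in myeloid cells. Tubb3 had 7.09 FPKM in AUL against 0.459 in lineage-negative cells, and Gad1 was listed at 0 in all 4 leukaemias. Nlgn2 is at chr11:69823122-69837784, 942 bases from Spem1, a spermatid gene on the same strand, which had 0.681 to 1.91 FPKM in the leukaemias and was listed at 0 in all normal libraries. The part of neuronal markers in the Nlgn2 levels was not tested.

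Ankrd13b had 80.2 FPKM in B-ALL and 87.0 in T-ALL, with 10.8 in AML and 77.0 in AUL, against 1.44, 8.95, 1.09 and 9.24 in normal B, T and myeloid cells and in lineage-negative cells. AML stood 8.07 times below the highest leukaemia (7.57 to 8.61) and just 1.17 times above the highest normal library (1.07 to 1.27). Against normal myeloid cells its fold was nevertheless 9.86 (8.22 to 11.9), near 9.71 in T-ALL (9.02 to 10.5) and 8.34 in AUL (7.78 to 8.94), whereas in B-ALL it was 55.5 (46.8 to 66.4). Normal B and myeloid cells had the lowest levels, 1.44 and 1.09 FPKM, but B-ALL had 80.2 FPKM and AML 10.8.

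No other listed gene of the ANKRD13 family and ubiquitin-dependent endocytosis was higher. Of 11 genes 3 were listed, and Ankrd13d, the paralogue, had 6.90 to 10.7 FPKM in the leukaemias against 16.8 to 42.4 in the normal libraries, at least 2-fold lower in B-ALL, AML and AUL. The endosomal sorting gene Hgs had 21.4 to 24.2 FPKM against 29.4 to 35.6, and Egfr at most 0.0237 against 0.119 to 2.79. Ankrd13b is at chr11:77470485-77489678. The non-coding gene 2210008F06Rik, 176 bases away on the opposite strand, had 6.08, 6.63, 1.05 and 3.25 FPKM in the order B-ALL, T-ALL, AML, AUL and 0.0232, 0.4996, 0.0884 and 0.229 in the matching normal cells. Like Ankrd13b it was lowest in AML among the leukaemias, and was 2-fold higher in B-ALL, T-ALL and AUL, with a log2 difference of 0.91 in AML. Coro6, 1 base beyond the other end of Ankrd13b, had at most 0.246 FPKM in any library. Whether counting used strand is not given in the sources used here.

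Bcat1 had 89.0 FPKM in B-ALL and 51.3 in T-ALL, with 2.47 in AML and 68.0 in AUL, against 4.98, 1.15, 0.138 and 3.99 in normal B, T and myeloid cells and in lineage-negative cells. The AML level was 36.1 times below B-ALL (31.0 to 42.2) and below normal B and lineage-negative cells, so the groups overlapped. The fold was nevertheless 17.9 in both AML (10.0 to 35.3) and B-ALL (16.0 to 20.02), close to 17.0 in AUL (15.1 to 19.2), and 44.5 in T-ALL (35.2 to 57.2). The AML fold rests on 174 fragments against 12. On the log2(FPKM + 1) scale, which narrows differences of low genes, AML had 1.61 and the other comparisons 3.79 to 4.603.

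Of 20 other genes of branched-chain amino acid transport and breakdown 15 were listed. Among these 1 was higher in B-ALL and 3 in T-ALL, with 11 in AML and 1 in AUL. In the same order 2, 3, 2 and 5 were lower. The shares over all genes were 18.2%, 22.1%, 43.3% and 13.6% higher and 21.9%, 24.0%, 26.7% and 29.5% lower. With median-ratio scaling 7 of the 15 were higher and 3 lower in AML. Bcat2, the mitochondrial transaminase, had 26.4, 96.5, 112.0 and 45.8 FPKM in the order B-ALL, T-ALL, AML, AUL against 29.0, 28.2, 26.6 and 50.1, so among the leukaemias it was highest in AML, where Bcat1 was lowest. Slc7a5, the large neutral amino acid transporter, was the gene of the list that was higher in all 4, at 166.8 to 196.5 FPKM against 7.69 to 61.4. Its partner chain Slc3a2 had 135.1 to 267.7 FPKM against 73.7 to 140.3. Ivd, which acts later in leucine breakdown, had 26.1 to 60.9 FPKM against 16.4 to 116.1. Bcat1 is at chr6:144993835-145076184 and shares exon positions with the antisense gene Gm26666, which had at most 0.152 FPKM.

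Alpl had 240.1 FPKM in B-ALL and 257.4 in T-ALL, with 2.45 in AML and 133.0 in AUL, against 16.9, 2.93, 0.314 and 7.41 in normal B, T and myeloid cells and in lineage-negative cells. Its levels varied most of the 7: the highest leukaemia was 105.2 times the lowest (84.6 to 132.4). AML was level with normal T cells within counting error, and normal B cells were 6.91 times above AML. The fold was 14.2 in B-ALL (13.0 to 15.5) and 87.7 in T-ALL (70.9 to 109.8), with 7.79 in AML (4.31 to 15.3) and 17.9 in AUL (15.8 to 20.4). The AML fold rests on 82 fragments against 13.

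Of 10 osteoblast and stromal markers 6 were listed; their summed level was 3.81 to 24.5 FPKM in the leukaemias, lowest in T-ALL, and 26.3 to 110.3 in the normal libraries, mostly from Runx2. Without Runx2 the sum was 5.22 FPKM in B-ALL and 3.35 in T-ALL, against 4.48 in normal B and 1.76 in normal T cells. It was 5.35 in AML against 11.9 in normal myeloid cells, and 6.98 in AUL against 13.5 in lineage-negative cells. The bone collagen gene Col1a1 had 0.478 to 2.54 FPKM in the leukaemias and 0.425 to 3.81 in the normal libraries. Its partner Col1a2 had 1.18, 1.34 and 1.18 FPKM in B-ALL, T-ALL and AML against 0.197, 0.0945 and 0.109 in their references. Col1a2 was 2-fold higher in T-ALL, but in AUL it was lower, at 0.452 against 1.44 in lineage-negative cells. Endothelial cells also carry this phosphatase; 5 of 6 of their markers were listed, at a summed 0 to 0.822 FPKM in the leukaemias and 0.337 to 16.7 in the normal libraries. The part of such cells in the Alpl levels was not tested. Of 11 phosphatase, pyrophosphate and vitamin B6 genes 7 were listed. Of 6 tested 2 were higher in B-ALL and 3 in T-ALL, with 4 in AML and 1 in AUL. In the same order 1, 0, 1 and 0 were lower. Shares of all genes were 18.2%, 22.1%, 43.3% and 13.6% higher and 21.9%, 24.0%, 26.7% and 29.5% lower. With median-ratio scaling 1, 2, 3 and 1 of the 6 were higher and 2 were lower in AML. With a common FPKM sum 1, 3, 4 and 0 were higher. The phosphate transporters Slc20a1 and Slc20a2 had 58.1 to 87.1 and 22.7 to 39.6 FPKM in the leukaemias, against 28.4 to 95.7 and 3.78 to 16.2. The vitamin B6 kinase gene Pdxk had 14.8 to 37.7 FPKM, against 6.53 to 23.0. Alpl is at chr4:137741733-137796384, between Rap1gap, 11872 bases away, and Ece1, 65853 bases away. Ece1 had 49.3, 23.8, 0.564 and 19.2 FPKM in the order B-ALL, T-ALL, AML, AUL and was also lowest in AML, while Rap1gap reached at most 3.96 FPKM.

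**Figure D3:**
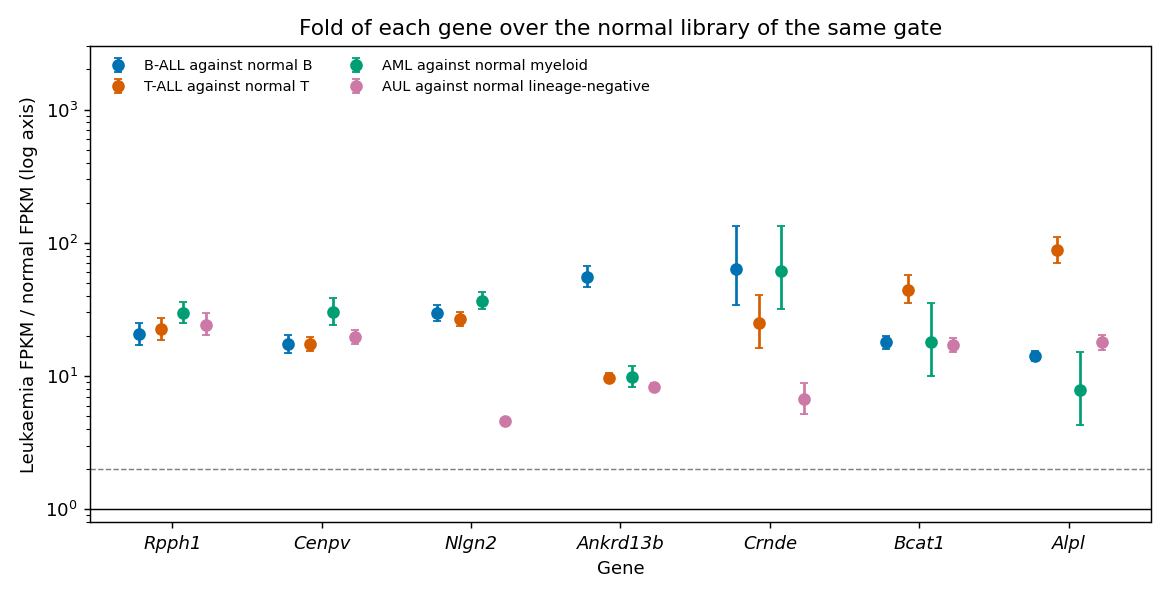
Fold of each gene in the 4 comparisons on a log axis, as the FPKM ratio of leukaemia to the normal library of the same gate; bars are 95% intervals that cover counting error only. Rpph1 lies between 20.6 and 29.9 and Cenpv between 17.3 and 30.2, whereas Nlgn2 and Crnde drop to 4.59 and 6.77 in AUL and Alpl spans 7.79 to 87.7.

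Set side by side, the 7 genes fell into different patterns. In 5 of them the lowest leukaemia lay above the highest normal library, as it did in 14.5% of all genes; in Bcat1 and Alpl it did not, the lowest leukaemia being AML. In 4 of them (Cenpv, Ankrd13b, Bcat1 and Alpl) the highest leukaemia was at least 2 times the lowest, against 71.8% of all genes. Without the myeloid gate that held for 1 of the 7, Cenpv. The share of all genes without that gate is not given here, so the drop cannot be read as particular to the 7. On the deposited scale normal myeloid cells had the lowest normal level of every one of the 7, though for Rpph1 and Crnde not beyond counting error. With median-ratio scaling they had it for Cenpv, Bcat1 and Alpl only. AML had the lowest leukaemia level of 5 of the 7 on the deposited scale and of 6 with median-ratio scaling. That scaling divided normal myeloid levels by 0.593 and the other normal levels by 1.02 to 1.17. The share of all genes lowest in these libraries is not given here, so these orders cannot be read as particular to the 7. With all 4 comparisons taken against the highest normal library in place of the matching one, 4 of the 7 (Rpph1, Cenpv, Nlgn2 and Crnde) and 75 of all genes were still 2-fold higher throughout.

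The likeness of patterns was measured as the root mean square difference of log2(FPKM + 1) over the 8 libraries. Each gene was first centred on its own mean. Candidates were 7310 genes with at least 10 FPKM in some library, without those of predicted or clone names (Gm with digits, Rik or an accession). The closest pair of the 7 was Nlgn2 and Crnde, at 0.37, and each was the nearest of all candidates to the other. Rpph1 was nearest to Crnde (0.68), then Cenpv (0.70) and Nlgn2 (0.74). Cenpv was nearest to Nlgn2 (0.63), then to Snord110 and Lmna (both 0.65). After Crnde, Nlgn2 was nearest to Bag2 (0.50) and Smyd2 (0.53), and after Nlgn2, Crnde was nearest to Snord70 (0.45) and Bag2 (0.46). Ankrd13b was nearest to Car12 (0.57), Ryk (0.67) and Smyd2 (0.70), none of them among the 7. Bcat1 and Alpl were nearest to each other (0.70), and Ccdc85c and Map2 came next for both. Since the 7 were picked for one shared direction over these libraries, their closeness to each other is a description.

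**Figure D4:**
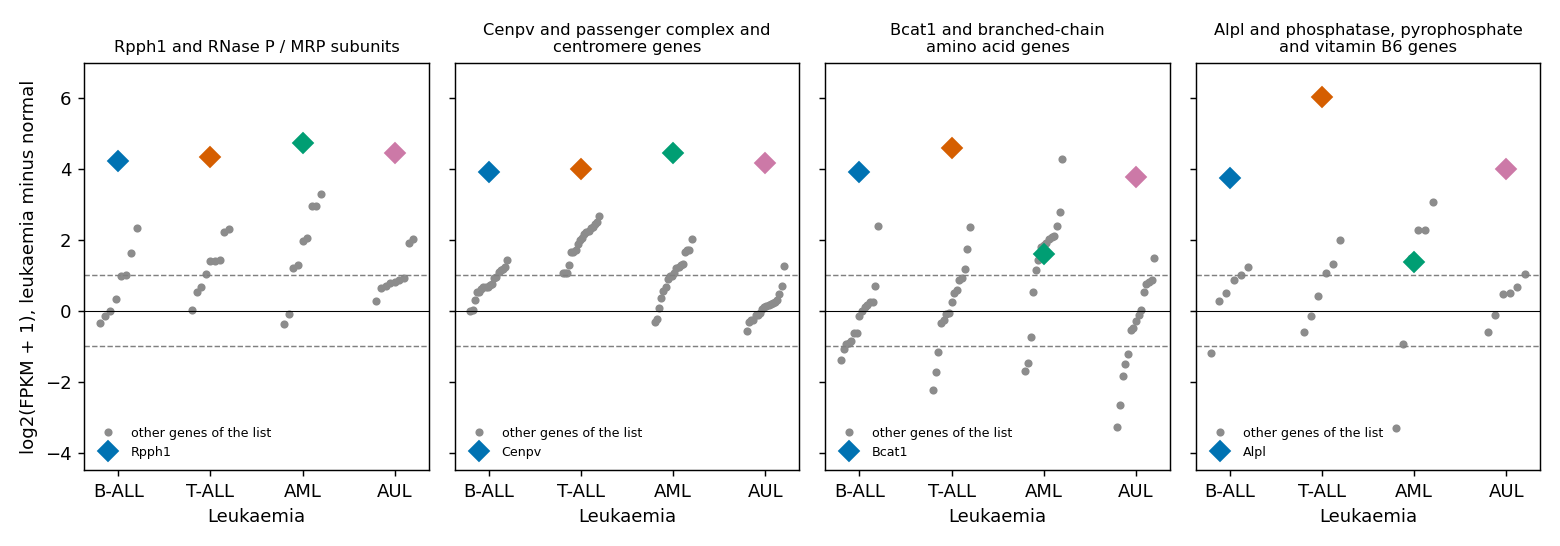
log2(FPKM + 1) differences, leukaemia minus normal, of Rpph1, Cenpv, Bcat1 and Alpl (diamonds) and of the other genes of the list each goes with (grey points, ordered by value); dashed lines mark a 2-fold difference. On this scale Rpph1 and Cenpv lie above every other gene of their lists, whereas Bcat1 at 1.61 and Alpl at 1.39 lie among theirs in AML. The diamonds mark genes that were picked for such differences.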

How the data were processed

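Per the labels' protocols, poly(A) RNA of sorted cells was captured with oligo(dT), copied with random primers and sequenced as paired-end 150-base reads on a HiSeq instrument. Per the submitters' processing notes the tools were STAR, HTSeq and edgeR, on build mm10; versions, settings and strand use are not given in the sources used here. The deposited values are FPKM, which the authors computed per gene. The rule by which 16434 genes entered the table is not given, so shares of genes refer to listed genes.

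FPKM multiplied by the rounded mean transcript length of a gene in GENCODE M21 gave whole fragments for all values of the 7 genes (to within 0.02 of a fragment) and for 79.9% to 80.6% of tested values per library. Fragment counts gave exact 95% Poisson intervals for levels and conditional binomial intervals for ratios; both cover counting error only. Levels were compared as log2(FPKM + 1), leukaemia minus the normal library of the same gate, with Python 3.11.15, numpy 2.4.6, pandas 2.3.3 and scipy 1.17.1. With 1 library per group there is no test. The recovery of library totals and the calls of 2-fold higher genes were tested on simulated data. The FPKM ratios and the 95% intervals were not part of that test. A level scaled by mean transcript length is higher than one scaled by the longest transcript; for Alpl these lengths are 792 and 2522 bases.

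Named genes were the 7, per gene list up to 4 others with the highest single FPKM (or any list member to give its value), nearest and overlapping genes, and for each of the 7 the 3 genes most alike in pattern. Gm27605, Snord69 and Rn7sk were named after their values were seen. A few genes that this rule takes are not reported here. The 7 genes, the lists and the rules were chosen with earlier results of these data known. Alternatives were another pseudocount, 2 other scalings, no filter on low values, the highest normal library as reference, each gate left out, and a looser motif.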

Additional observations from a re-analysis of the deposited data

Results flagged for a closer look

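Some genes named beside the 7 were at least 2-fold higher in one comparison and at least 2-fold lower in another; none of the 7 was. These opposite directions were not tested, since each group has 1 library. The values are log2(FPKM + 1) differences, leukaemia minus normal. Mpo had 2.64 in AML, with -1.12 in B-ALL, -1.89 in T-ALL and -6.88 in AUL. Rn7sk had 3.61 in AUL, with -1.59 in T-ALL and -1.36 in AML. Among the synapse genes beside Nlgn2, Gphn had 1.47 in AML and -1.90 in T-ALL, and Dlg4 1.53 in T-ALL and -1.75 in AML. Ivd, the leucine breakdown gene beside Bcat1, had 1.81 in AML and -1.83 in AUL. Of the neighbours of Alpl, Rap1gap had 1.64 in T-ALL and -1.48 in AUL, and Ece1 had 1.15 in B-ALL and -2.33 in AML. With median-ratio scaling Gphn (0.74) and Ivd (0.98) were no longer 2-fold higher in AML.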

How the results depend on the processing

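No paired analysis was possible because no result comes from a test, with 1 library per group. All 28 log2 differences of the 7 genes (1.39 to 6.04) stayed at least 2-fold with a pseudocount of 0.1 (2.19 to 6.41), median-ratio scaling (1.09 to 5.86) and scaling to a common FPKM sum (1.45 to 6.07). Median-ratio scaling moved the median of all genes in AML from 0.56 to -0.14, and scaling to a common sum moved it to 0.72. With the highest normal library as the reference, 25 of the 28 stayed at least 2-fold higher. Then 4 of the 7 were higher in AML, 4 were higher in all 4 comparisons and 75 of all genes were, in place of 282; the AML difference was -0.79 for Bcat1 and -2.38 for Alpl. With that reference other genes also changed sign: Cd3e in B-ALL (-3.16), AML (-6.08) and AUL (-1.93), Ezh2 in T-ALL (-0.16) and AML (-0.99), Col1a2 in T-ALL (-0.066), Slc20a1 in B-ALL (-0.55) and AML (-0.23), and in AML Mpo (-0.88), Parp2 (-0.052), Car12 (-0.89) and Ivd (-0.95). Gates were left out of 2 further counts after the data were seen: without the lineage-negative gate 827 of all genes were higher in the remaining 3 comparisons, and without the myeloid gate 1 of the 7 had a highest leukaemia at least 2 times the lowest, in place of 4. The share of all genes with such a spread without the myeloid gate is not given here. The looser motif CANGTG was in 4 member windows in place of 0. These changes follow from how each alternative is built. Few fragments limit Crnde, Bcat1 and Alpl in normal myeloid cells (9, 12 and 13).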

Other observations

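All 7 genes are annotated on the minus strand, which holds 50.02% of listed genes. Cenpv, Nlgn2 and Ankrd13b lie within 15.0 Mb of chromosome 11. Of 174 other genes of that interval with at least 1 FPKM in some library, 6 were at least 2-fold higher in all 4 comparisons (3.45%), against 3.09% of the other genes of chromosome 11 and 2.18% of all other genes.

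By the mean of the 4 log2 differences the order of the 7 changed: Rpph1 was 2nd of all genes, Cenpv 4th, Alpl 5th, Nlgn2 7th, Bcat1 9th, Ankrd13b 10th and Crnde 11th. Alpl and Bcat1, at 78th and 40th by their smallest difference, thus moved up by the mean.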
